A study of Mus musculus with 6 samples.

Results

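The 38 genes described here encode the acidifying and protein-degrading machinery of the lysosome and 2 of its transcription factors. They are the 23 protein-coding genes whose symbol starts with Atp6v, 11 cathepsins, the lysosome membrane glycoproteins Lamp1 and Lamp2, and the transcription factors Tfeb and Tfe3. The rule picks them by name from the 48432 genes of the deposited table and uses no measured value, but it was set with earlier results of these data known. Polyadenylated RNA of hepatocytes from mice of the FVB strain was measured in 6 samples, 2 in each of 3 groups. The normal fed samples came from adults on normal chow, the DDC fed samples from adults fed for 4 weeks with DDC, a compound that blocks heme synthesis and injures the liver, and each E18 sample from a pool of about 8 embryos at embryonic day 18. FVB is the strain of every group, no genotype or transgene is named, and whether the adult samples are from different mice is not stated. Samples are called 0 and 1 within a group, as the columns number them. Values are TPM, transcript shares corrected for gene length that sum to 1000000 in each sample. Levels of different genes are set side by side on this scale, with limits. The difference between the normal fed samples still moved with exon length (Spearman rho = -0.39), and 80 abundant genes are listed at 0 in a group.

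Lysosomes digest proteins, lipids and sugars in an acid lumen. The vacuolar proton pump (V-ATPase) makes that acid: its V1 sector on the cytosolic face splits ATP, and its V0 sector in the membrane passes the protons. Cathepsins are the main lysosomal proteases, and Lamp1 and Lamp2 are the most abundant proteins of the lysosomal membrane. Tfeb and Tfe3 belong to the MiT/TFE family, which enters the nucleus when mTORC1 on the lysosome is inactive and binds a short promoter motif found in many lysosomal genes. In the liver, hepatocytes use lysosomes for autophagy and for the breakdown of proteins taken up from blood, and the resident macrophages (Kupffer cells) are rich in lysosomes and cathepsins.

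Promoter sequence is shown because the family that includes Tfeb and Tfe3 binds the motif TCACGTG, so that a reader can see which members carry it. The RefSeq promoter table for GRCm38.p6, with 250 bases before and 50 after each gene start, held 29 of the 38 members in 36 windows. TCACGTG or its reverse complement CACGTGA lay in a window of 7 members (24.1% of the 29), and in 4.29% of all 27025 genes in the table. The shorter E-box CACGTG, which the first motif contains, lay in 9 of the 29 members (31.0%) and in 8.09% of all genes. At least 2 separate stretches of TCACGTG were found in 4 of the 36 member windows (11.1%) and in 0.314% of all 32851 windows. The 7 members were Lamp1, Ctsd, Ctsa, Atp6v0b, Atp6v0d1, Atp6v0e and Atp6v1a. The 250 bases before the start are given 5′ to 3′ on the gene's strand for the member with the most stretches, for an aspartic cathepsin, and for 1 subunit of each pump sector, with the motif in capitals.
Lamp1, chr8:13158911-13159160, plus strand: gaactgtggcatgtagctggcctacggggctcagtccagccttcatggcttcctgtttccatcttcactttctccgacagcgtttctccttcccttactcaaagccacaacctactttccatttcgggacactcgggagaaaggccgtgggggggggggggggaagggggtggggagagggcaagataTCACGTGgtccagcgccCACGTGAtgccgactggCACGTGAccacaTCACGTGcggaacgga
Ctsd, chr7:142387828-142388077, minus strand: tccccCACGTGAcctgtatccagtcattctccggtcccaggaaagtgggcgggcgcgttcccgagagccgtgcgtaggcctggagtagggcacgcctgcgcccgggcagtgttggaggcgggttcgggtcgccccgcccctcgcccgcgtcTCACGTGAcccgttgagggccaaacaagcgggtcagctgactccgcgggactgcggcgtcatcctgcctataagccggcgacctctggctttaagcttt
Atp6v0b, chr4:117887330-117887579, minus strand: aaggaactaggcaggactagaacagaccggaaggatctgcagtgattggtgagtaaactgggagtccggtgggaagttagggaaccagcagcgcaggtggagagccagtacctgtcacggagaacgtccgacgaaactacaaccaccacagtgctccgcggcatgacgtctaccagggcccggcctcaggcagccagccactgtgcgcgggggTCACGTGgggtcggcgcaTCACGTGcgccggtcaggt
Atp6v1a, chr16:44139260-44139509, minus strand: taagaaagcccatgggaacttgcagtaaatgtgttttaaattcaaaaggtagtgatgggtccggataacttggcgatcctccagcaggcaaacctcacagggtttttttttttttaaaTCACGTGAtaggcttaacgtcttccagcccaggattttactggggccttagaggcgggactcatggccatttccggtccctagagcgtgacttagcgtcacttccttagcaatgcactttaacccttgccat
Lamp1 held 4 stretches, with first bases 62, 45, 28 and 16 bases before the start. Ctsd held stretches at 245 and 99 bases before the start, Atp6v0b at 37 and 19, and Atp6v1a at 132. A match is a description of the sequence and not a measured binding site. Atp6v1c1, Atp6v1g1, Atp6v1h, Atp6v1b2, Atp6v0a2, Atp6v0d2, Ctsb, Ctsh and Ctse were not in the promoter table.

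The test, limma on log2(TPM + 1), took in the 14307 genes that reached 1 TPM in at least 2 samples, and 32 of the 38 members passed that filter. The 6 that did not were the subunit isoforms Atp6v0a4, Atp6v1b1, Atp6v1c2, Atp6v1e2 and Atp6v1g3, and Atp6v1fnb, a neighbour of Atp6v1f on chromosome 6 that shares the prefix and is not a pump subunit. Atp6v1g3 and Atp6v1fnb were listed at 0 in all 6 samples, and the other 4 reached at most 0.84 TPM. Atp6v0d2 passed the filter only through the DDC fed samples, and Ctsk only through the DDC fed and E18 samples. No member was among the 80 genes that are listed at 0 in both samples of a group despite at least 100 TPM in some sample. Albumin (Alb) is one gene listed at 0 in all 6 samples, while the hepatocyte markers Ttr (2487 to 9640 TPM) and Asgr1 (122 to 753 TPM) were present in every sample. Normal fed sample 1 lay below sample 0 in 25 of the 32 tested members, and the median absolute log2 difference of the members was 0.60 between the normal fed samples, 0.105 between the DDC fed and 0.16 between the E18 samples. Because levels are shares, fold changes were also computed after median-ratio scaling, which divides each sample by the median ratio of its genes to their geometric mean over all samples. This scaling moved the median log2 change of all genes from 0.45 to 0 for DDC fed against normal fed, from 1.06 to 0.087 for E18 against normal fed, and from -0.55 to -0.08 for DDC fed against E18.

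Markers of other cell types differed between the groups. The 20 macrophage and Kupffer cell markers summed to 162 to 208 TPM in the normal fed samples, 1614 to 1951 in the DDC fed and 4991 to 6440 at E18. Such a sum is weighted to the markers with the highest TPM. All 20 rose in DDC fed and at E18 (18 of 20 at E18 after median-ratio scaling), where 34.2% and 63.0% of all genes rose. Neutrophil markers summed to at most 4.93 TPM in any adult sample and to 57284 and 68331 TPM at E18, and erythroid markers to at most 39.9 TPM in adults and to 12850 and 24126 TPM at E18. Endothelial markers summed to 71.0 and 22.2 TPM in normal fed, 252 and 267 in DDC fed and 564.5 and 562 at E18, and stellate cell and fibroblast markers to 28.4 and 12.7, 408 and 367.5, and 689 and 674.5 TPM. No macrophage marker was at 0 in any group, whereas 6 of 10 neutrophil markers (among them Mpo, Ltf and S100a9) were at 0 in both normal fed samples. In bulk RNA, more cells of a type and more RNA per cell cannot be told apart.

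**Figure D1:**
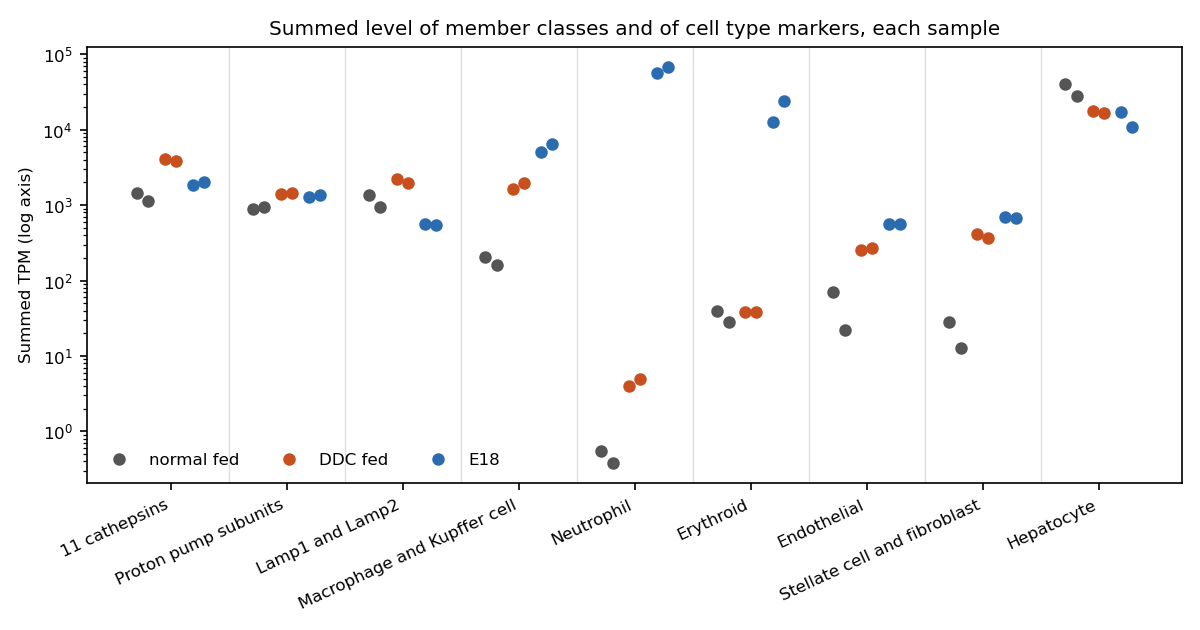
Summed TPM (log axis) of the 11 cathepsins, the 22 proton pump subunits, Lamp1 with Lamp2, and lists of cell type markers, with 1 point per sample and groups by colour. The cathepsin sum is highest in the DDC fed samples (4154 and 3814 TPM), while the sum of the macrophage list is highest at E18 (4991 and 6440 TPM). Taken singly, 11 of the 20 macrophage markers were lower in DDC fed than at E18 and 2 higher, where 47.0% and 17.7% of all genes were.

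DDC fed against normal fed adults asks how these genes differ after 4 weeks of the DDC diet. Of the 32 members tested, 18 rose, against a background of 34.2% of all genes tested that rose. Among the 18, Atp6v0d2 and Ctsk passed the filter only through groups where they are high. None fell, where 3.07% of all genes fell, and by limma 0 members were lower at an unadjusted p under 0.05 as well. The median log2 change was 0.87 over the members and 0.45 over all genes. After median-ratio scaling 11 members were higher and 3 (Ctse, Ctsc and Tfeb) lower, where 32.1% of all genes were called in either direction. The groups did not overlap for 24 members with DDC fed above normal fed, where 62.4% of all genes did so, and for 1 member (Ctse) below, where 8.99% did so.

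Most cathepsins rose. Their summed level was 1458 and 1139 TPM with normal feed, against 4154 and 3814 TPM with DDC. Of the 11 cathepsins 7 rose (63.6%, beside 34.2% of all genes), with a median log2 change of 1.83 over the 11. The same 7 rose after median-ratio scaling (median 1.16, with Ctse and Ctsc then lower). The calls of Ctsa, Ctsb, Ctsd, Ctsl, Ctss and Ctsz held under all 15 alternative settings, and that of Ctsk under the 14 that tested it (its mean is below 5 TPM, the limit of the other). Ctsk, counted in the 7, passed the filter only through the DDC fed and E18 samples, so its call is not read as support. The 20 macrophage markers rose in the same samples with a median log2 change of 3.02, and their part in the cathepsin result was not tested.

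**Figure D2:**
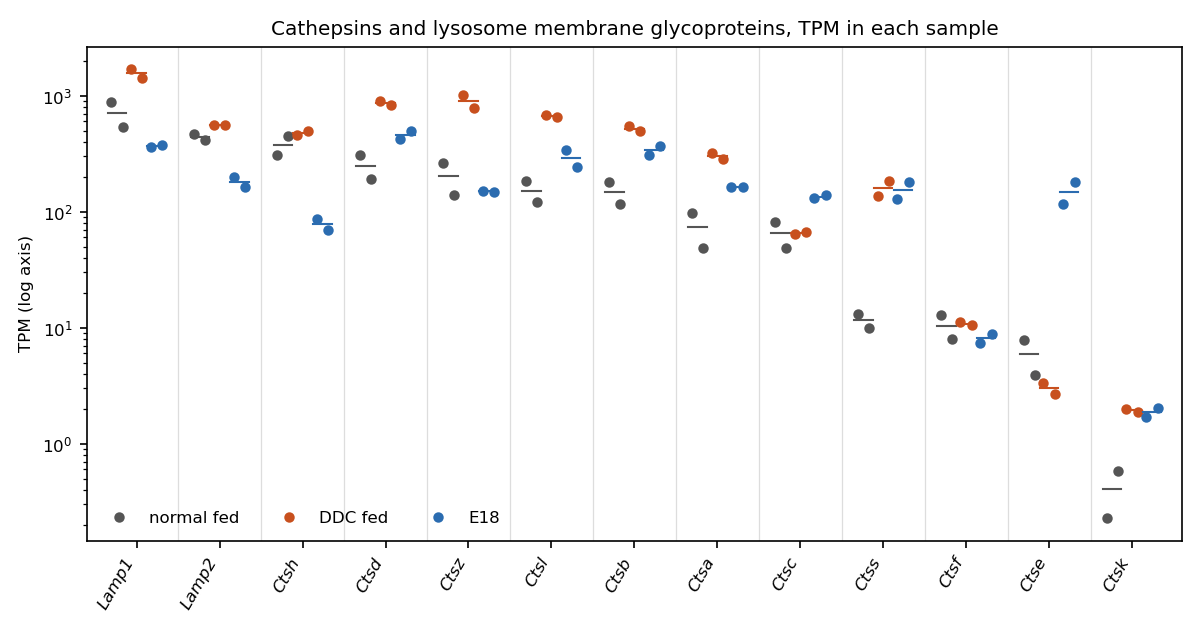
TPM (log axis) of the 11 cathepsins, Lamp1 and Lamp2, ordered by their mean in the normal fed samples; points are samples and short lines are group means. Ctsz, Ctsl, Ctsd, Ctsb and Ctsa are highest in both DDC fed samples, Ctse is highest in the E18 samples (117 and 180 TPM), and Ctsh and both Lamp genes are lowest at E18.

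Among the cysteine cathepsins, Ctsz (cathepsin Z, a carboxypeptidase) was measured at 265 and 140.5 TPM in the normal fed, 1024 and 787.5 in the DDC fed, and 150.4 and 149 in the E18 samples. Both DDC fed values lay above the other 4, with a log2 change against normal fed of 2.21 ± 0.34 (adjusted p = 0.00282). Ctsl, the broad endopeptidase cathepsin L, stood at 184 and 120.4 TPM in normal fed, 677 and 651 in DDC fed, and 339 and 244 at E18. DDC fed was again the highest group and normal fed the lowest (2.15 ± 0.29, adjusted p = 0.00173). Ctsb, the abundant cathepsin B with endo- and exopeptidase activity, ran from 182 and 116 TPM in normal fed to 547 and 494 in DDC fed, with 308 and 366 at E18. It rose by 1.83 ± 0.28 (adjusted p = 0.0028), and the 3 groups did not overlap.

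Ctss, cathepsin S, is the protease that processes the invariant chain in antigen-presenting cells. Its levels were 13.2 and 10.02 TPM in normal fed, 135 and 184 in DDC fed, and 129 and 180.2 at E18. The DDC fed and E18 values overlapped, and both groups lay far above the normal fed samples. The DDC rise of 3.67 ± 0.27 (adjusted p = 0.000186) was the largest of any member. The macrophage marker Lyz2, 1 of the 20 on that list and chosen after its values were seen, rose alongside it, from 19.6 and 26.3 TPM to 331 and 445 TPM. The ratio of Ctss to Lyz2 was 0.67 and 0.38 in normal fed, 0.41 and 0.41 in DDC fed, and 0.048 and 0.054 at E18. These ratios depend on the marker: the log2 change of Lyz2 at E18 was 6.98, where the median over the 20 macrophage markers was 3.93. Ctsk, cathepsin K, is the collagen-degrading protease of osteoclasts and lies beside Ctss on chromosome 3. It was low throughout, at 0.23 and 0.58 TPM in normal fed, 1.98 and 1.89 in DDC fed and 1.71 and 2.03 at E18. Its rise of 1.07 ± 0.16 (adjusted p = 0.0026) depends on the pseudocount (2.10 with 0.1 and 0.36 with 5). Ctsk passed the filter only through the DDC fed and E18 samples, so its call is not read as support.

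Of the cathepsins outside the cysteine class, Ctsd and Ctsa rose. Ctsd, the aspartic protease cathepsin D that starts bulk protein breakdown, was at 308 and 190.3 TPM in normal fed, 909 and 830.3 in DDC fed, and 423 and 498 at E18 (1.84 ± 0.29, adjusted p = 0.00344). Ctsa, a serine carboxypeptidase that also protects β-galactosidase and neuraminidase, was at 97.2 and 49.1 TPM, then 318 and 286, and 163 and 162 at E18 (2.11 ± 0.33, adjusted p = 0.00308). For both genes each DDC fed sample lay above each E18 sample, and each E18 sample above each normal fed sample.

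The other 4 cathepsins did not pass the threshold in this comparison. Ctsh, the aminopeptidase cathepsin H, stood at 306 and 452 TPM in normal fed and 463 and 499.5 in DDC fed (0.37 ± 0.26, adjusted p = 0.302). Ctsc, cathepsin C (dipeptidyl peptidase I), which activates granule proteases of neutrophils and mast cells, stood at 81.0 and 49.0 TPM in normal fed and 63.7 and 67.3 in DDC fed (0.05 ± 0.27, adjusted p = 0.903). Ctse, cathepsin E, an aspartic protease of endosomes, was listed at 7.91 and 3.88 TPM in normal fed and 3.34 and 2.70 in DDC fed (-0.72 ± 0.35, adjusted p = 0.149). Ctsf was between 7.96 and 12.9 TPM in all 4 adult samples. As a share of the summed cathepsin TPM, Ctsh made up 20.97% and 39.65% in normal fed and 11.2% and 13.1% in DDC fed, while Ctsz made up 18.2% and 12.3% and then 24.7% and 20.6%.

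Subunits of the proton pump rose in both sectors. Of the 17 tested 9 rose (52.9%, beside 34.2% of all genes), 5 of 9 in V1 and 4 of 8 in V0. The median log2 change over the 17 was 0.83. After median-ratio scaling 3 of them (Atp6v1a, Atp6v1b2 and Atp6v0d2) were still called, and the median was 0.20. Atp6v0d2, counted here, passed the filter only through the DDC fed samples. The V1 genes summed to 491 and 501 TPM in normal fed and 734 and 768 in DDC fed, and the V0 genes to 403 and 456 and then 681 and 688.5 TPM.

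**Figure D3:**
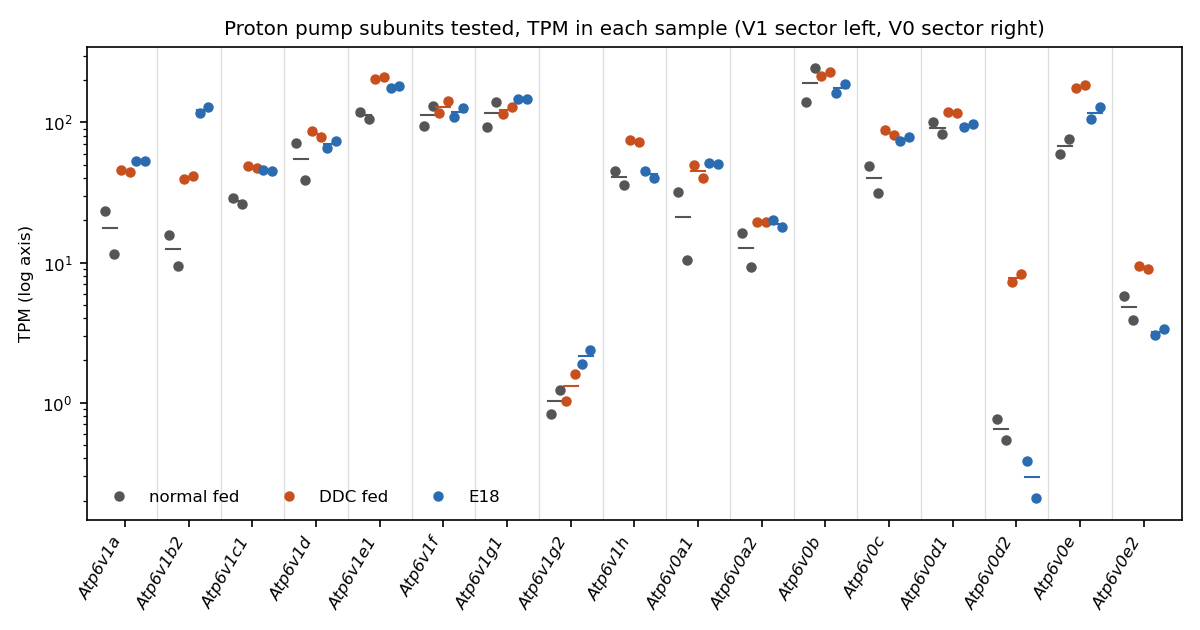
TPM (log axis) of the 17 tested pump subunits, V1 sector to the left and V0 sector to the right; points are samples and short lines are group means. Atp6v1b2 is highest at E18 (116 and 129 TPM), Atp6v0d2 is highest in DDC fed (7.21 and 8.32 TPM), and Atp6v1f, Atp6v1g1 and Atp6v0b overlap between normal fed and DDC fed.

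In the V1 sector, the catalytic hexagon is built of A and B subunits. Atp6v1a, the ATP-splitting A subunit, was at 23.5 and 11.5 TPM in normal fed, 45.6 and 44.1 in DDC fed, and 53.1 and 53.1 at E18 (DDC rise 1.39 ± 0.32, adjusted p = 0.0149). Atp6v1b2, the B subunit found in most tissues, was at 15.7 and 9.39 TPM in normal fed, 39.7 and 41.2 in DDC fed, and 116 and 129 at E18 (1.66 ± 0.26, adjusted p = 0.00321). The renal B isoform Atp6v1b1 stayed at or below 0.14 TPM in all samples. The ratio of Atp6v1b2 to Atp6v1a was 0.67 and 0.82 in normal fed, 0.87 and 0.93 in DDC fed, and 2.18 and 2.43 at E18.

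The other V1 subunits form the central and peripheral stalks. Atp6v1e1, the main E subunit of the peripheral stalks, rose from 119 and 106 TPM to 205 and 211 (0.88 ± 0.19, adjusted p = 0.0122), with 177 and 183 at E18. Atp6v1h, a regulatory subunit that stops ATP splitting in free V1, rose from 45.2 and 35.8 to 74.5 and 73.0 TPM (0.86 ± 0.20, adjusted p = 0.0161), with 44.8 and 40.4 at E18. Atp6v1c1, the C subunit released when the pump comes apart, rose from 28.8 and 26.1 to 48.6 and 47.0 TPM (0.78 ± 0.18, adjusted p = 0.0149), with 45.9 and 44.9 at E18. None of these 3 was called after median-ratio scaling (adjusted p = 0.351 to 0.588).

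Atp6v1d, of the central stalk, was at 71.0 and 38.5 TPM in normal fed, 87.3 and 78.3 in DDC fed and 65.9 and 74.2 at E18, and Atp6v1f, also of the stalk, at 93.7 and 131.5, 116 and 143, and 109 and 127. Atp6v1g1, the main G subunit, was at 92.9 and 141 TPM in normal fed, 115 and 129 in DDC fed and 146.5 and 147 at E18. These 3 did not pass the threshold against normal fed in either group (adjusted p = 0.135, 0.528 and 0.807 for DDC fed). Atp6v1g2, a G isoform mainly of neurons, lay between 0.83 and 2.39 TPM.

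In the V0 sector, Atp6v0e, a small e subunit, was at 59.8 and 75.6 TPM in normal fed, 176 and 184 in DDC fed, and 106 and 129 at E18 (1.41 ± 0.22, adjusted p = 0.00299). Atp6v0c, the main proteolipid of the proton-carrying ring, was at 48.8 and 31.1, 87.8 and 81.3, and 73.9 and 78.6 TPM (1.10 ± 0.25, adjusted p = 0.0146). Its processed pseudogene Atp6v0c-ps2 was listed at 71.1 and 38.8 TPM in normal fed, 135 and 118 in DDC fed, and 75.9 and 77.8 at E18, so reads of the 2 may be shared and both levels are uncertain. Atp6v0e2, the second e isoform, rose from 5.77 and 3.91 to 9.51 and 9.02 TPM (0.83 ± 0.22, adjusted p = 0.0251) and stood at 3.04 and 3.35 at E18. After median-ratio scaling the adjusted p of these genes was 0.0895 for Atp6v0e, 0.0921 for Atp6v0c and 0.251 for Atp6v0e2.

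Atp6v0d2 is the d subunit isoform known from osteoclasts and macrophages, and it was high in DDC fed alone. Its levels were 0.76 and 0.54 TPM in normal fed, 7.21 and 8.32 in DDC fed, and 0.38 and 0.21 at E18, with a log2 change of 2.41 ± 0.16 (adjusted p = 0.000118) against normal fed and 2.76 ± 0.16 (adjusted p = 1.31e-05) against E18. Both calls held under the 14 alternatives that tested the gene, whose mean is below 5 TPM, with a size that depends on the pseudocount (3.40 with 0.1 and 1.17 with 5 against normal fed). It was at most 0.76 TPM in the other 4 samples and passed the filter only through the DDC fed samples. Its 2 calls therefore describe a gene that could be tested only because it is high there, and are not read as support. The macrophage marker sum was 1614 to 1951 TPM in DDC fed and 4991 to 6440 TPM at E18, and its part in this result was not tested. Atp6v0d1, the d isoform of most cells, was at 100.2 and 82.1 TPM in normal fed, 118 and 117 in DDC fed, and 92.7 and 97.9 at E18 (0.37 ± 0.20 for DDC fed, adjusted p = 0.179). Atp6v0d2 thus made up 0.76% and 0.65% of the d isoform TPM in normal fed, 5.76% and 6.62% in DDC fed, and 0.41% and 0.21% at E18.

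The remaining V0 members did not pass in this comparison. Atp6v0a1, an a subunit that anchors the pump and lines the proton path, was at 31.6 and 10.5 TPM in normal fed, 49.5 and 40.0 in DDC fed, and 51.4 and 50.8 at E18 (1.23 ± 0.46 for DDC fed, adjusted p = 0.0744). Atp6v0b, the second proteolipid of the ring, was at 139 and 243 TPM in normal fed, 213 and 228 in DDC fed, and 163 and 188 at E18 (0.26 ± 0.30, adjusted p = 0.521). The spread of the normal fed samples covered both other groups for Atp6v0b. Atp6v0a2, an a isoform of the Golgi and endosomes, lay between 9.22 and 20.1 TPM in all samples.

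Of the 9 pump calls in this comparison 6 rest on both DDC fed samples. Without DDC fed sample 0 or 1, Atp6v0c, Atp6v0e2, Atp6v1a, Atp6v1c1, Atp6v1e1 and Atp6v1h no longer passed (adjusted p = 0.0896 to 0.148 and 0.0822 to 0.126). Without E18 sample 0 or 1, which only share the variance, Atp6v0c, Atp6v0e2 and Atp6v1a did not pass (adjusted p = 0.0616 to 0.0835 and 0.0616 to 0.083). Without normal fed sample 1 the rise of Atp6v1a was 0.91.

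Lamp1 was the most abundant member in both adult groups and carries 4 motif stretches before its start. It was at 877 and 542 TPM in normal fed, 1686 and 1433 in DDC fed, and 362 and 378 at E18, and rose in DDC fed by 1.17 ± 0.30 (adjusted p = 0.0235). Lamp2, needed for the fusion of autophagosomes with lysosomes and for chaperone-mediated autophagy, was at 470.4 and 413 TPM in normal fed, 561 and 554 in DDC fed, and 200.5 and 163 at E18 (0.34 ± 0.22 for DDC fed, adjusted p = 0.275). Each DDC fed value of both genes lay above each normal fed value, which in turn lay above each E18 value. The Lamp1 call did not pass after median-ratio scaling (0.50, adjusted p = 0.208), without DDC fed sample 0 or 1 (adjusted p = 0.171 and 0.11) or without E18 sample 0 or 1 (adjusted p = 0.0769 and 0.0764).

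Tfe3 was at 11.5 and 7.54 TPM in normal fed, 21.6 and 22.2 in DDC fed, and 24.2 and 27.5 at E18, a rise of 1.15 ± 0.24 in DDC fed (adjusted p = 0.0101). It passed after median-ratio scaling too (0.53, adjusted p = 0.0479), but not without DDC fed sample 0 or 1 (adjusted p = 0.0747 and 0.0824). Tfeb was at 8.62 and 6.83 TPM in normal fed, 6.70 and 7.95 in DDC fed, and 12.8 and 14.0 at E18. Its adult groups overlapped (-0.06 ± 0.21, adjusted p = 0.846), and the ratio of Tfe3 to Tfeb was 1.33 and 1.11 in normal fed, 3.23 and 2.80 in DDC fed and 1.89 and 1.97 at E18. These are transcript levels, and the activity of these factors, which is set largely by where the protein is, was not measured.

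Split by the promoter motif, 5 of the 7 members with TCACGTG rose in DDC fed (Lamp1, Ctsd, Ctsa, Atp6v0e and Atp6v1a), with a median log2 change of 1.39. Of the 22 matched members without it 16 were tested and 8 rose, with a median of 0.86. Atp6v0b and Atp6v0d1 carry the motif and did not pass. Ctss, Ctsz and Ctsl rose, and no TCACGTG lies in their windows. The groups were not compared by a test, and 34.2% of all genes tested rose.

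**Figure D4:**
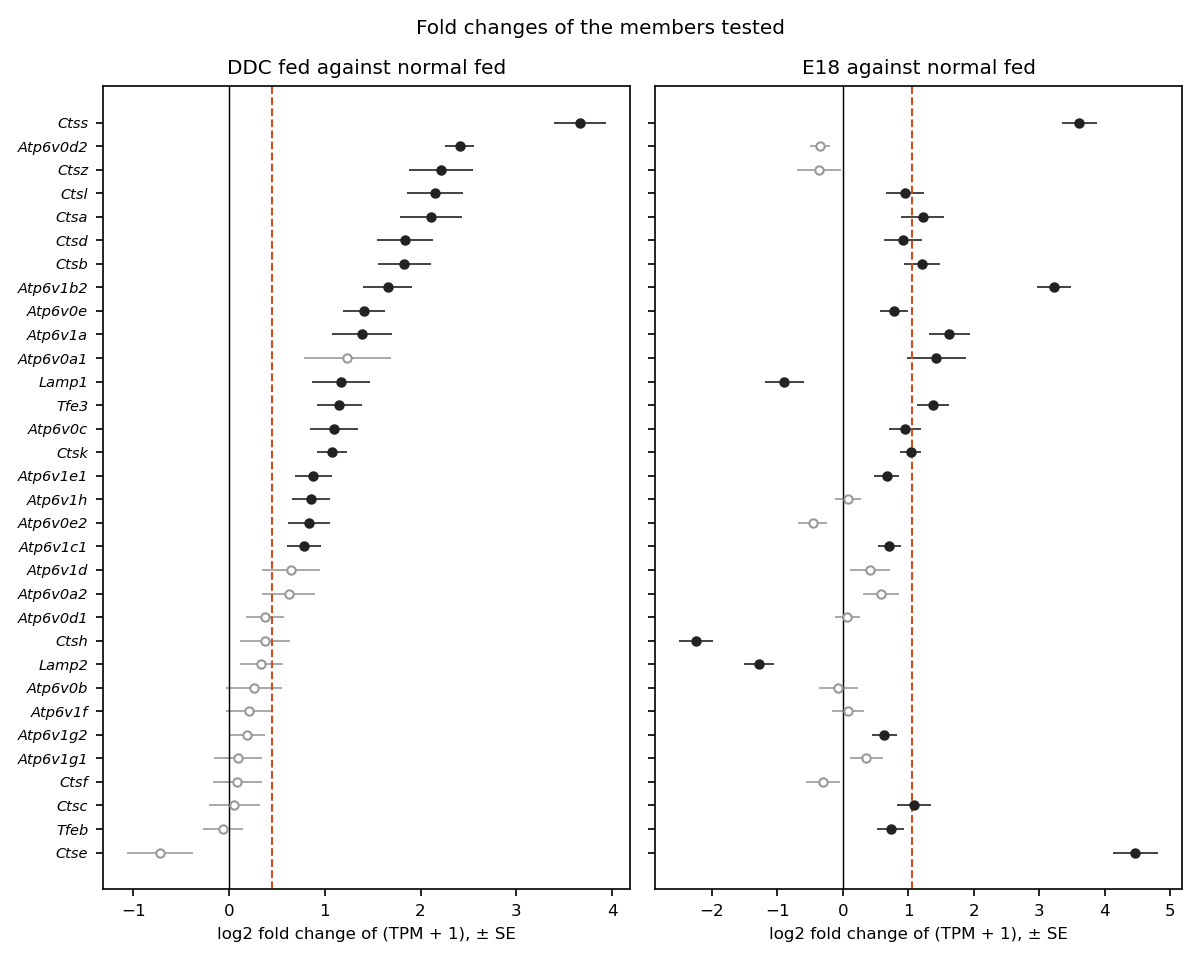
Log2 fold change of (TPM + 1) with its standard error for the 32 tested members, DDC fed against normal fed (left) and E18 against normal fed (right), in the order of the DDC change; filled points passed an adjusted p of 0.05, open points did not, and the dashed line is the median of all genes tested (0.45 left, 1.06 right). Cathepsins lie mostly to the right of the dashed line on the left side, while Ctse, Ctss and Atp6v1b2 stand far to the right and Ctsh, Lamp2 and Lamp1 to the left of 0 on the right side.

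E18 against normal fed asks how the genes differ between embryonic and adult samples, and it shares the normal fed samples with the comparison above. Of the 32 members 18 rose, where 63.0% of all genes rose, and 3 fell, where 12.7% of all genes fell. Among the 18, Ctsk passed the filter only through the DDC fed and E18 samples, and its call is not read as support. The members' median log2 change was 0.69, below the 1.06 of all genes. After median-ratio scaling 3 members (Ctse, Ctss and Atp6v1b2) were higher and 15 lower, where 69.8% of all genes were called in either direction. Under that scaling 9 of the 18 rises turned negative. The summed TPM of all members was 3727 and 3950 at E18 and 3718 and 3067 in normal fed.

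Ctse, Ctss, Atp6v1b2, Ctsh and Lamp2 kept their call in this comparison under all 15 alternatives. Ctse was at 117 and 180 TPM at E18, against 2.70 to 7.91 TPM in the 4 adult samples, a rise of 4.47 ± 0.35 (adjusted p = 3.23e-05). Cathepsin E is known from blood-forming cells and gastric epithelium. It rose together with the erythroid and neutrophil sums given above, and their part in it was not tested. Ctss rose by 3.62 ± 0.27 (adjusted p = 2.63e-05), and Atp6v1b2 by 3.23 ± 0.26 (adjusted p = 3.75e-05), while its partner Atp6v1a rose by 1.63 ± 0.32 (adjusted p = 0.00295).

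Ctsh fell to 86.0 and 70.2 TPM at E18 from 306 and 452 TPM, a change of -2.24 ± 0.26 (adjusted p = 0.000239). Lamp2 fell by 1.28 on the log2 scale (SE 0.22, adjusted p = 0.00178). For both genes all 4 adult samples lay above both E18 samples. Lamp1 changed by -0.90 ± 0.30 (adjusted p = 0.031). It did not pass without DDC fed sample 0 or 1 (adjusted p = 0.0712 and 0.0729) or E18 sample 0 or 1 (adjusted p = 0.138 and 0.121), and the change was -0.55 without normal fed sample 0, whereas median-ratio scaling made it -2.10 (adjusted p = 0.000722). Hepatocyte markers differed as well: of 14 tested 10 were called lower at E18 and 2 higher, but 4 of these calls rest on values of 0 in both samples of a group (Ahsg and Fgb at E18, Apoa1 and Serpina1a in normal fed). Of the other 10 markers 8 fell, where 12.7% of all genes fell, and none rose. The part of these markers in the 3 falls was not tested.

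The other 6 cathepsins that rose at E18 on the TPM scale, Ctsa, Ctsb, Ctsc, Ctsd, Ctsk and Ctsl, were not called after median-ratio scaling (adjusted p = 0.103 to 0.987), where Ctsc, Ctsd and Ctsl turned negative. On the TPM scale Ctsc was highest at E18, at 130.4 and 140.1 TPM (1.09 ± 0.27 against normal fed, adjusted p = 0.00823). Without E18 sample 0, Ctsa, Ctsc, Ctsd and Ctsl did not pass (adjusted p = 0.0615 to 0.143), and without E18 sample 1, Ctsa, Ctsb, Ctsc and Ctsd did not (adjusted p = 0.0659 to 0.142). Ctsd and Ctsl also failed without DDC fed sample 0 or 1 (adjusted p = 0.052 to 0.0593 and 0.0527 to 0.0604), and Ctsl without normal fed sample 1 (adjusted p = 0.0522). Without normal fed sample 1, Ctsa was 0.74 and Ctsd 0.57 higher. Ctsz, so high in DDC fed, did not pass at E18 (-0.37 ± 0.34, adjusted p = 0.35).

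Of the 17 pump subunits 8 rose at E18 on the TPM scale (47.1%, below the 63.0% of all genes). After median-ratio scaling 1 was higher (Atp6v1b2) and 10 lower, where 69.8% of all genes were called in either direction. Beside Atp6v1b2 and Atp6v1a the risers were Atp6v0a1 (1.43), Atp6v0c (0.95), Atp6v0e (0.79), Atp6v1c1 (0.71), Atp6v1e1 (0.67) and Atp6v1g2 (0.64). Without E18 sample 1 all of these but Atp6v1c1 lost the call, Atp6v1a included (adjusted p = 0.05 to 0.159), and without E18 sample 0 Atp6v0a1, Atp6v0c and Atp6v1g2 did (adjusted p = 0.0516 to 0.16). Atp6v1e1 also missed it without DDC fed sample 0 or 1 (adjusted p = 0.0597 and 0.0607), and Atp6v1g2 without normal fed sample 0 (adjusted p = 0.0792). Atp6v0a1, whose normal fed samples differ most among these genes, rose by 2.18 without normal fed sample 0 and by 0.68 without normal fed sample 1, and Atp6v0c by 0.63 without sample 1. Atp6v1h, Atp6v0d1, Atp6v1f and Atp6v0b overlapped between E18 and normal fed. Atp6v1c2, the C isoform of kidney and lung, was at 0.84 and 0.75 TPM at E18 and listed at 0 in all adult samples.

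Both transcription factors rose at E18 on the TPM scale, Tfe3 by 1.38 ± 0.24 (adjusted p = 0.00167) and Tfeb by 0.73 ± 0.21 (adjusted p = 0.0172), and neither was called after median-ratio scaling (0.25 and -0.37, adjusted p = 0.201 and 0.0859). Tfeb was not called without E18 sample 0 or 1 (adjusted p = 0.0746 and 0.109).

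DDC fed against E18 sets the 2 groups that both differ from normal fed beside each other. Of the 32 members 11 were higher in DDC fed, where 17.7% of all genes were, and 4 lower, where 47.0% were. The median log2 difference was 0.22 over the members and -0.55 over all genes. After median-ratio scaling 19 were higher and 3 lower, where 61.9% of all genes were called in either direction. The 8 calls that held under every alternative that tested the gene (14 for Atp6v0d2, 15 for the others) were those of Ctsh (2.61 ± 0.26), Ctsz (2.58 ± 0.34), Lamp1 (2.07 ± 0.30), Lamp2 (1.62 ± 0.22), Atp6v0d2 and Atp6v0e2 (1.29 ± 0.22), higher in DDC fed, and of Ctse (-5.19 ± 0.35) and Atp6v1b2 (-1.57 ± 0.26), lower. Their adjusted p ranged from 1.31e-05 for Atp6v0d2, which passed the filter only through the DDC fed samples, to 0.00208 for Atp6v0e2.

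Ctsl (1.20 ± 0.29, adjusted p = 0.00984), Ctsd (0.92 ± 0.29, adjusted p = 0.0291) and Ctsa (0.89 ± 0.33, adjusted p = 0.0484) were higher in DDC fed than at E18, as were Atp6v1h (0.78 ± 0.20, adjusted p = 0.0126) and Atp6v0e (0.62 ± 0.22, adjusted p = 0.04). Ctsc (-1.03 ± 0.27, adjusted p = 0.0126) and Tfeb (-0.79 ± 0.21, adjusted p = 0.0148) were lower, Tfeb not after median-ratio scaling (adjusted p = 0.149). Of these 7, none was called without DDC fed sample 0 (adjusted p = 0.0674 to 0.196), DDC fed sample 1 (0.0582 to 0.201) or E18 sample 1 (0.0703 to 0.212), and only Ctsl and Atp6v1h were without E18 sample 0. Ctss did not pass (0.05 ± 0.27, adjusted p = 0.879). Of the 20 macrophage markers 11 were lower in DDC fed than at E18 and 2 higher (9 and 4 after median-ratio scaling). On the TPM scale 47.0% of all genes tested were lower in this comparison and 17.7% higher. The part of the macrophage markers in the Ctss levels was not tested. The ratio of Ctsz to Ctsh was 2.21 and 1.58 in DDC fed, 1.75 and 2.12 at E18, and 0.87 and 0.31 in normal fed.

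Other lysosomal genes were taken from lists that the rule does not include, and were chosen with results of these data known. After median-ratio scaling, the share of all genes called in either direction against normal fed was 32.1% in DDC fed and 69.8% at E18. Of 41 further hydrolases and activators 32 rose in DDC fed (78.0%, beside 34.2% of all genes), with a median of 1.30. After median-ratio scaling 23 were higher and 1 lower. Hexa, a subunit of a lysosomal enzyme that degrades gangliosides, went from 9.88 and 7.83 TPM in normal fed to 167 and 151 in DDC fed, with 102 and 117 at E18 (DDC change 4.03 ± 0.20, adjusted p = 4.79e-05). All DDC fed and E18 samples were above both normal fed samples. Lgmn, the asparaginyl endopeptidase legumain that cleaves cathepsins to their mature forms, was at 32.3 and 21.4 TPM in normal fed, 154.5 and 157 in DDC fed, and 173 and 211 at E18 (2.52 ± 0.25, adjusted p = 0.0005). Asah1, acid ceramidase, rose by 2.26 ± 0.20 (adjusted p = 0.000372). At E18 24 of the 41 rose (58.5%, near the 63.0% of all genes) and 3 fell, against 11 higher and 16 lower after median-ratio scaling.

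Among 16 accessory and assembly genes of the pump 7 rose in DDC fed (43.8%, beside 34.2% of all genes), and 3 after median-ratio scaling. Atp6ap2, the (pro)renin receptor needed for pump assembly, rose from 28.1 and 23.3 to 75.7 and 68.6 TPM (1.46 ± 0.20, adjusted p = 0.00174), with 84.3 and 94.9 at E18. Tcirg1, the a3 isoform of the a subunit known from osteoclasts and lysosomes, falls outside the rule by its symbol. It was at 23.4 and 14.9 TPM in normal fed, 50.1 and 45.6 in DDC fed, and 67.7 and 75.2 at E18 (1.31 ± 0.25 in DDC fed, adjusted p = 0.00718, and 1.88 ± 0.25 at E18, adjusted p = 0.00046). Without DDC fed sample 0 or 1 its DDC call was lost (adjusted p = 0.067 and 0.0503). Tcirg1 made up 32.8% and 43.1% of the a isoform TPM in normal fed, 42.1% and 43.3% in DDC fed, and 48.5% and 52.2% at E18. At E18 9 of the 16 rose, a share of 56.2% that is near the background, and 1 fell (4 and 6 after median-ratio scaling).

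Of 20 genes that sort enzymes to lysosomes 12 rose in DDC fed (4 after median-ratio scaling), where 34.2% of all genes rose. The same list had 16 rises at E18, where 63.0% of all genes rose, and 1 fall (7 and 6 after scaling). Cln6, a membrane protein of the endoplasmic reticulum that helps export lysosomal enzymes, was at 0.88 and 0.66 TPM in normal fed, 23.4 and 14.7 in DDC fed, and 33.1 and 37.7 at E18 (3.47 ± 0.26, adjusted p = 0.0002, and 4.36 ± 0.26, adjusted p = 9.43e-06). Cln6, counted in both rises, passed the filter only through the DDC fed and E18 samples, so its calls are not read as support. Of 21 other lysosomal membrane proteins 8 rose in DDC fed, near the background share, and 1 after median-ratio scaling. At E18 9 of them rose (42.9%, below the background of 63.0%) and 1 fell (3 and 11 after scaling).

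Of 8 cathepsin inhibitors tested 3 rose in DDC fed (Cst3, Cstb and Serpinb6a), and 2 after median-ratio scaling. The others, named below, passed the filter only through E18 and could not differ between the adult groups. The count is therefore not set against the share of all genes. Serpinb6a, a cytosolic serpin that inhibits serine proteases such as cathepsin G, was at 7.30 and 7.29 TPM in normal fed, 224 and 234 in DDC fed, and 66.9 and 70.7 at E18 (4.79 ± 0.18 in DDC fed, adjusted p = 1.47e-05, and 3.07 ± 0.18 at E18, adjusted p = 7.8e-06). Cstb, cystatin B, the cytosolic inhibitor of cysteine cathepsins, was at 91.4 and 153.5 TPM in normal fed, 1157 and 1330.4 in DDC fed, and 129 and 109.6 at E18 (3.38 ± 0.29 in DDC fed, adjusted p = 0.000323, and 0.00 ± 0.29 at E18, adjusted p = 0.992, or -1.19 after median-ratio scaling, adjusted p = 0.0329). The stefins Stfa2 and Stfa3 were listed at 0 in every adult sample, while their E18 values were 2167 and 2632, and 3676 and 4500 TPM. They belong to a cluster of near-identical genes, so their split is uncertain. Csta1, Stfa1, Stfa2, Stfa3 and Cst7 were at most 0.074 TPM in the adult samples and passed the filter only through E18, so the 6 inhibitors called higher there (6 higher and 1 lower after median-ratio scaling) are not read as a count.

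Of 21 regulators of MiT/TFE factors and of mTORC1 on the lysosome 7 rose in DDC fed, near the background share (2 higher and 2 lower after median-ratio scaling). Rragd, the RagD GTPase that recruits mTORC1 to the lysosome and is itself a known MiT/TFE target, was at 0.13 and 0.085 TPM in normal fed, 46.0 and 41.6 in DDC fed, and 1.57 and 1.18 at E18 (5.34 ± 0.18 in DDC fed, adjusted p = 9.85e-06). Tfec, the MiT/TFE member of macrophages, was at 0.49 and 0.56 TPM in normal fed, 3.77 and 3.44 in DDC fed, and 26.6 and 27.2 at E18 (1.59 ± 0.18, adjusted p = 0.000759, and 4.19 ± 0.18, adjusted p = 2.48e-06). Rragd and Tfec passed the filter only through the DDC fed and E18 samples, so their calls are not read as support. Mitf was at 1.29 and 1.02 TPM in normal fed, 2.05 and 2.28 in DDC fed, and 2.83 and 3.13 at E18. Its DDC change of 0.56 ± 0.15 (adjusted p = 0.0269) was not called after median-ratio scaling (adjusted p = 0.373), without DDC fed sample 0 or 1 (adjusted p = 0.108 and 0.161) or without normal fed sample 1 (adjusted p = 0.066). At E18 13 of the 21 rose, a share of 61.9% that is near the background (4 higher and 5 lower after median-ratio scaling).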

How the data were processed

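The deposited table gives TPM for 48432 genes in 6 samples; per the labels the libraries were stranded and poly(A)-selected. Per the submitters' processing notes the tools were STAR 2.4.2a, HTSeq, Cuffdiff 2.2.1, DESeq2, Trimmomatic, Picard 1.119 and bcl2fastq 2.17.1.14, with build GRCm38 (mm10). Which of them made the values is not given in the sources used here. Depth and counting error are unknown, since TPM keeps no counts. Each column sums to 1000000. Titles number the samples 1 and 2 and the columns 0 and 1, so a column is known by its group only, and with no separate animals named the p-values measure only the spread between these samples.

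Identifiers were matched to GENCODE M21 (48053 matched). Values were log2(TPM + 1), and fold changes on this scale understate the change of low genes. The linear model of limma 3.58.1 (R 4.3.3, package data.table, version 1.17.8) had a mean for each group and took all 6 samples, with empirical Bayes variances following the mean and 3 residual degrees of freedom. P-values are two-sided and adjusted (Benjamini and Hochberg) over the 14307 genes that reached 1 TPM in at least 2 samples, with a threshold of 0.05. The script was tested on simulated data. Summaries and figures used Python 3.11.15 with numpy 2.4.6, pandas 2.3.3 and matplotlib 3.10.9. Errors are SE of the log2 change, and the 2 values of each group are printed in place of an SD.

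Members with a mean of at least 20 TPM in some group, or past the threshold with an absolute log2 change of at least 1, are given in every sample, the rest by range. Of other lists, up to 4 genes with the smallest adjusted p in each comparison with normal fed could be named, and Tcirg1, Mitf, Tfec and Lgmn always. Ttr, Asgr1, Alb, Lyz2 and the genes listed at 0 were chosen after their values were seen. A gene at 0 in both samples of a group gets no fold change. Members and lists were chosen with earlier results of these data known. The 15 alternatives changed the pseudocount (0.1 or 5), the filter (none, or a mean of 5 TPM or more), the scaling (median-ratio, or rescaling without the 50 highest genes and erythroid markers), or the fit: an exon-length correction, the replicate number as a block, only the compared groups, and each sample left out in turn, where the sample left alone takes its variance from the other groups.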

Additional observations from a re-analysis of the deposited data

How the results depend on the processing

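Of the members past the threshold, 7 of 18 kept the call for DDC fed against normal fed under all 15 alternatives, 5 of 21 for E18 against normal fed and 7 of 15 for DDC fed against E18. Ctsk (first comparison) and Atp6v0d2 (first and last) kept theirs under the 14 that tested them, but both passed the filter only through groups where they are high. Under median-ratio scaling the members called higher and lower were 11 and 3 for DDC fed against normal fed, 3 and 15 for E18 against normal fed, and 19 and 3 for DDC fed against E18, and without the 50 highest genes and erythroid markers 13 and 5 for E18 against normal fed. Of all genes, 32.1%, 69.8% and 61.9% were called in either direction under median-ratio scaling, in the same order. Without the 50 highest genes and erythroid markers the share was 73.8% for E18 against normal fed. For E18 against normal fed, median-ratio scaling turned 9 rises negative: Ctsd -0.28, Ctsc -0.10, Ctsl -0.26, Atp6v0c -0.23, Atp6v0e -0.41, Atp6v1c1 -0.46, Atp6v1e1 -0.52, Tfeb -0.37 and Atp6v1g2 -0.093. With each sample left out in turn, the members called higher ranged from 10 to 23 and lower from 0 to 1 for DDC fed against normal fed, 7 to 19 and 2 to 6 for E18 against normal fed, and 6 to 14 and 2 to 4 for DDC fed against E18. The share of all genes moved too: 17.6% to 55.7% were called higher and 1.52% to 6.90% lower in the first, 50.5% to 69.0% and 8.02% to 16.2% in the second, and 10.2% to 23.0% and 32.6% to 55.2% in the last. The counts were lowest with a DDC fed or an E18 sample left out, and rose without a normal fed sample (23 without sample 0), whose spread then no longer enters the variance. No label says whether replicate numbers pair the samples. Deviations of same-numbered samples correlated at 0.233, 0.139 and 0.061 for the 3 pairs of groups across 14307 genes, which does not settle it. With the replicate number as a block, 19 and 0, 18 and 3, and 11 and 5 members were called higher and lower in the 3 comparisons. Of all genes, 39.1%, 77.4% and 66.3% were then called in either direction. Normal fed sample 1 minus sample 0 moved with exon length (Spearman rho = -0.39 across 14273 genes, as a description), and the exon-length correction left 18 and 0, 20 and 2, and 10 and 6 members. With that correction 38.1%, 76.2% and 66.1% of all genes were called in either direction. Depth is unknown, so values under about 1 TPM have no stated precision.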

Other observations

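Autophagy genes were read beside the lysosomal members. Of 27 such genes 4 rose in DDC fed against normal fed (1 higher and 4 lower after median-ratio scaling), below the 34.2% of all genes. Sqstm1, the autophagy receptor p62, was at 254 and 177 TPM in normal fed, 1003.5 and 938 in DDC fed, and 180.4 and 150.4 at E18, a rise of 2.19 ± 0.26 (adjusted p = 0.000983 by limma) in DDC fed. Map1lc3a and Gabarapl1, ubiquitin-like proteins of the autophagosome membrane, did not pass in DDC fed (0.19 ± 0.20 and 0.24 ± 0.19). At E18 Map1lc3a fell from 74.3 and 89.3 to 24.3 and 22.0 TPM, and Gabarapl1 from 289 and 306 to 83.1 and 85.8 TPM (-1.77 ± 0.20 and -1.81 ± 0.19). In all, 7 autophagy genes rose at E18 (25.9%, beside 63.0% of all genes) and 5 fell (18.5%, beside 12.7%). After median-ratio scaling 20 of the 27 were lower.

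Cathepsins outside the rule were also listed, and were looked at after their values were seen. Ctso was at 28.2 and 24.1 TPM in normal fed, 55.5 and 53.7 in DDC fed, and 18.2 and 14.5 at E18. Ctsg, the serine protease cathepsin G of neutrophil granules, was listed at 296.5 and 340 TPM at E18 and at most 0.035 TPM in the adult samples. Ctsj and Ctsw did not exceed 0.52 TPM in any sample.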
